A study of Mus musculus with 2 samples.

Results

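The integrated stress response is the pathway by which cells lower protein synthesis and switch on stress genes when the translation factor eIF2 is phosphorylated on its alpha subunit. Its central transcription factor, ATF4, is controlled largely through translation of its mRNA and switches on genes for amino acid supply, for other factors such as CHOP, and for enzymes that end the response. Part of the programme reaches the growth kinase complex mTORC1, which REDD1 (encoded by Ddit4) and the sestrins restrain. Osteoblasts are secretory cells, and ATF4 is known for its part in their differentiation and amino acid import.

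This account covers 10 genes, taken as the rows of the count table that carry their symbols. Of that pathway and its mTORC1 brakes these are Atf4, Atf5, Ddit3, Chac1, Trib3, Asns, Ppp1r15a, Ddit4 and Sesn2. Trib1 is included as a Tribbles relative of Trib3. The 10 genes occupied 11 of 55487 rows, because the symbol Ddit3 stands on 2 rows. The data come from MC3T3-E1, an osteoblast-like clonal line from mouse calvaria, kept in medium with serum. One group is untreated cells and the other is cells given 10 nM parathyroid hormone (PTH), a peptide that acts through a receptor coupled to cyclic AMP. Both are labelled 1 h and each has 1 library, and no vehicle is named for the untreated cells. The series set out to find genes that PTH induces.

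The untreated library held 66302211 counts and the PTH library 70036872, and 16408 rows with a total of 20 or more were compared. All 10 genes entered, and their lowest count in either library was 277. The other Ddit3 row, a 105-base model lying wholly within exons of the counted Ddit3 gene, was listed at 0 in both libraries, where sampling allows up to 3 counts. Values in CPM are counts scaled to library size, and a ratio is PTH over untreated with its 95% exact interval. These intervals cover counting error only, so they compare the 2 libraries, and the spread between cultures was not measured. Nothing in the design separates the hormone from any other difference between the 2 dishes, and in bulk RNA fewer cells of a type and less RNA per cell cannot be told apart. Of 7 osteoblast lineage markers all 7 were counted, though Bglap had only 57 counts untreated and 87 after PTH (0.849 and 1.26 CPM). Runx2, the lineage's early transcription factor, was at a ratio of 1.03 (1.01 to 1.06). The factor acting after it, Sp7, had 4583 and 1974 counts, a ratio of 0.418 (0.397 to 0.441), and was the 1 of the 7 whose interval lay beyond 1.5-fold. Of 26 markers of other cell types 10 had enough counts to compare and 12 had none in either library, among them Ptprc, Adgre1, Cdh5, Kdr, Myod1, Adipoq, Acan and Col10a1. Chondrocyte markers summed to 460 CPM untreated and 714 after PTH, through Col2a1 and Sox9, with Sox9 at a ratio of 3.27 (3.14 to 3.40). Those of macrophages and osteoclasts summed to 87.0 and 96.5, mostly through Ctsk. Endothelial, muscle and adipocyte markers summed to under 3 CPM each in both libraries. The muscle sum was 2.87 CPM untreated and 0.940 after PTH, with Acta1 at 124 and 28 counts and a ratio of 0.219 (0.140 to 0.333). Whether these cells or genes have a part in the values of the 10 genes was not tested.

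Ddit4 was the gene of this group that stood apart, 8.51-fold higher in the PTH library (7.94 to 9.13). Ppp1r15a, which encodes GADD34, the subunit that directs a phosphatase to eIF2alpha, was 1.66-fold higher (1.56 to 1.77). Chac1, a glutathione-degrading enzyme gene and ATF4 target, was 1.97-fold lower (1.78 to 2.18), and Trib1, a pseudokinase gene, 1.71-fold lower (1.63 to 1.78). The ratio of Atf4 was 0.949 (0.932 to 0.966), and that of its amino acid target Asns was 0.965 (0.938 to 0.993). A gene was called higher or lower when its whole interval lay beyond 1.5-fold. By this rule 2 of the 10 genes were higher, 2 lower and 6 neither, against 5.39% of all compared rows higher and 3.54% lower. Among the 10315 rows with at least as many counts as Trib3, the least counted of the 10 at 632, these shares were 3.28% and 1.65%.

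The sequence before the start is shown for Ddit4, Ppp1r15a and Chac1, which are the called genes with a RefSeq promoter window (no entry was found for Trib1). Each runs 5′ to 3′ on the gene's strand in the GRCm38.p6 build, ends where annotated exons begin, and carries in capitals any match to a searched motif. The motifs, sought on both strands over 250 bases before to 50 after the start, were the C/EBP-ATF response element TGATGNAAN, the cyclic AMP response element TGACGTCA, its core TGACG, which lies within it, and the ER stress element.

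Ddit4 (chr10:59951835-59952020, minus strand): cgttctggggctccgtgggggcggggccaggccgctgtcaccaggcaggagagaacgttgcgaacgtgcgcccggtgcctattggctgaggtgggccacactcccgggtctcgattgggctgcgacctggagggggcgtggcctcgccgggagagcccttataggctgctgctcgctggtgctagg
Ppp1r15a (chr7:45526269-45526518, minus strand): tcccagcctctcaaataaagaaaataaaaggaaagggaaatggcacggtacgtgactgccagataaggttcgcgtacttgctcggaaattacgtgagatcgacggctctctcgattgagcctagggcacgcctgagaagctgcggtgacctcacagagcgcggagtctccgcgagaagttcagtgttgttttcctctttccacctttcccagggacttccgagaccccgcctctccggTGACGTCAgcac
Chac1 (chr2:119350992-119351228, plus strand): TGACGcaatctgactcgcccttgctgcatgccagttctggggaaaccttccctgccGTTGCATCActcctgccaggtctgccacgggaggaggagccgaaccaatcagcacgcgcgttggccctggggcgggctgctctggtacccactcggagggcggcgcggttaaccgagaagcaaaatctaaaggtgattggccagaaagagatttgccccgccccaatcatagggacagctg

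Ppp1r15a was the gene among the 9 with a window that held the full cyclic AMP response element, at positions -12 to -5 from the start, a motif in 1.79% of 32851 windows. The core TGACG was found in 5 of the 9 genes, Asns, Atf4, Chac1, Ppp1r15a and Trib3, and in 20.8% of all windows. The Ddit4 window held none of the searched letters, which says nothing of the factors that act on the gene from elsewhere. The C/EBP-ATF element, to which ATF4 and its partners bind, was found in Asns, Chac1 and Trib3, against 3.95% of all windows. No window of the 9 genes held the ER stress element in exact form (CCAAT, 9 bases of any kind, then CCACG). That form was in 0.119% of all windows. Near matches were not sought, such as CCAAT, 9 bases and GCACG on the opposite strand of the Ddit3 window. The C/EBP-ATF matches are printed below in the direction of the element, with the matched letters in capitals, because the genes that hold them differed in ratio.

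Asns (chr6:7693214-7693242, minus strand): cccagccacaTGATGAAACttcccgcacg
Chac1 (chr2:119351038-119351066, minus strand): ctggcaggagTGATGCAACggcagggaag
Trib3 (chr2:152344029-152344057, plus strand): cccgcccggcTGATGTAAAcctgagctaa

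The 3 genes with this element were at ratios of 0.965 for Asns, 0.507 for Chac1 and 0.758 for Trib3. All of these were below 1. Of the genes covered here 7 were below 1, these 3 included, and 3 were above. Of all compared rows 50.3% had a log2 ratio above 0. By counting error alone the Asns interval overlapped neither of the others. With a coefficient of variation of 0.1 assumed for each library, it (0.731 to 1.27) overlapped that of Trib3 (0.552 to 1.04). It did not overlap that of Chac1 (0.378 to 0.680). With a coefficient of 0.2 it overlapped both. Whether the element has a part in these ratios was not tested. A match is a description of letters and not a bound site.

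Among the transcription factors, Atf4 (chr15:80255184-80257541, plus strand) was at 362 CPM untreated and 344 CPM after PTH, from 24297 and 23750 counts. Its interval lay below 1 and within 1.5-fold, so the mRNA differed between the libraries by little. Protein was not measured, and ATF4 output depends on translation, which these counts do not show. Atf5, a related bZIP factor that is likewise regulated through translation, was at 75.2 CPM untreated and 99.3 CPM after PTH. Its ratio of 1.32 (1.27 to 1.37) was above 1 and not past the rule, and 15.8% of compared rows had a higher one. Ddit3, which encodes CHOP, the factor that ties prolonged stress to cell death, was at 14.4 CPM untreated and 10.8 CPM after PTH. Its ratio was 0.750 (0.681 to 0.826), below 1 and short of the rule. By counting error alone Atf5 was above 1 and the others below it. With a coefficient of variation of 0.1 assumed for each library, the intervals of all 3 factors included 1. They were 0.7195 to 1.25 for Atf4, 0.9998 to 1.75 for Atf5 and 0.560 to 1.005 for Ddit3. A difference in direction between the 3 factors was therefore not shown. Exons of Ddit3 were shared over 6.13% of their length on the same strand, with the 105-base model that carries the same symbol. On the opposite strand 4.73% of Ddit3 and 4.11% of Atf5 was shared. Reads there cannot be assigned with certainty.

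**Figure D1:**
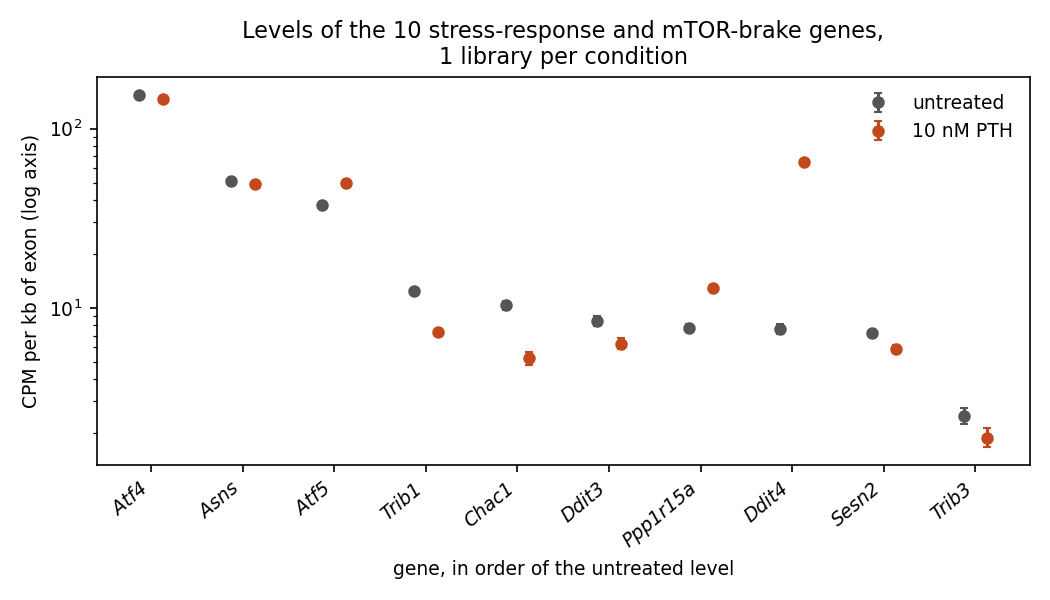
Level of each of the 10 genes as CPM per kb of exon (log axis) in the untreated library (grey) and the 10 nM PTH library (orange), with 95% Poisson counting intervals and 1 library per condition. Ddit4 moves from 7.65 to 65.1, while Atf4 is at 153 and 146.

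Among the effectors and feedback genes of the response, Ppp1r15a was called higher and Chac1 lower. Ppp1r15a (chr7:45522916-45526268, minus strand) had 1528 counts untreated and 2612 after PTH, or 22.8 and 37.8 CPM. It closes a feedback loop, since the phosphatase it guides reverses eIF2alpha phosphorylation, and 9.35% of compared rows had a higher ratio. Chac1 (chr2:119351229-119354381, plus strand) had 1134 counts untreated and 592 after PTH, or 16.9 and 8.56 CPM. It had the lowest ratio of the 10, and 4.96% of compared rows had a lower one. Trib3, a pseudokinase gene induced by ATF4 and CHOP whose product binds both ATF4 and AKT, was at 5.29 CPM untreated and 4.01 CPM after PTH. Its ratio of 0.758 (0.645 to 0.889) was not past the rule. Asns, which makes asparagine, was at 140 CPM untreated and 135 CPM after PTH. These 4 genes thus comprised 1 higher, 1 lower and 2 neither, beside 5.39% of all compared rows higher and 3.54% lower. Of the 4 ratios 3 were below 1, Asns only slightly, while 50.3% of all compared rows had a log2 ratio above 0.

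The pair of mTORC1 brakes differed. Ddit4 (chr10:59949669-59951834, minus strand) encodes REDD1, which lowers mTORC1 activity through the TSC complex. It had 901 counts untreated and 7897 after PTH, or 13.4 and 114 CPM. By ratio it stood in place 92 among 12771 protein-coding rows compared, and 0.933% of all compared rows had a higher ratio. Sesn2, which encodes a leucine sensor that restrains mTORC1 through GATOR2, had 1680 counts untreated and 1419 after PTH. Its ratio was 0.820 (0.764 to 0.881), on the other side of 1 from Ddit4 by counting error alone. Neither gene shares exons with another annotated gene.

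Trib1 (chr15:59648350-59657099, plus strand), which encodes a Tribbles scaffold that brings the ubiquitin ligase COP1 to C/EBP factors, had 5220 counts untreated and 3152 after PTH. These were 77.7 and 45.6 CPM, the lower value being in the PTH library, and 7.05% of compared rows had a lower ratio. Its relatives were on the same side of 1, with Trib2 at 0.681 (0.650 to 0.713) and Trib3 at 0.758, neither past the rule. Among the sestrins, Sesn1 was at 0.924 (0.856 to 0.997) and Sesn3 at 0.946 (0.910 to 0.985). Both were below 1 with Sesn2 by counting error alone. With a coefficient of variation of 0.1 assumed for each library, the Sesn2 interval was 0.617 to 1.09. Ddit4l, the paralogue of Ddit4, had 24 and 31 counts and a ratio of 1.25 (0.713 to 2.23), too few counts to place it on either side of 1. Chac2, the paralogue of Chac1, was at 0.891 (0.736 to 1.08).

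**Figure D2:**
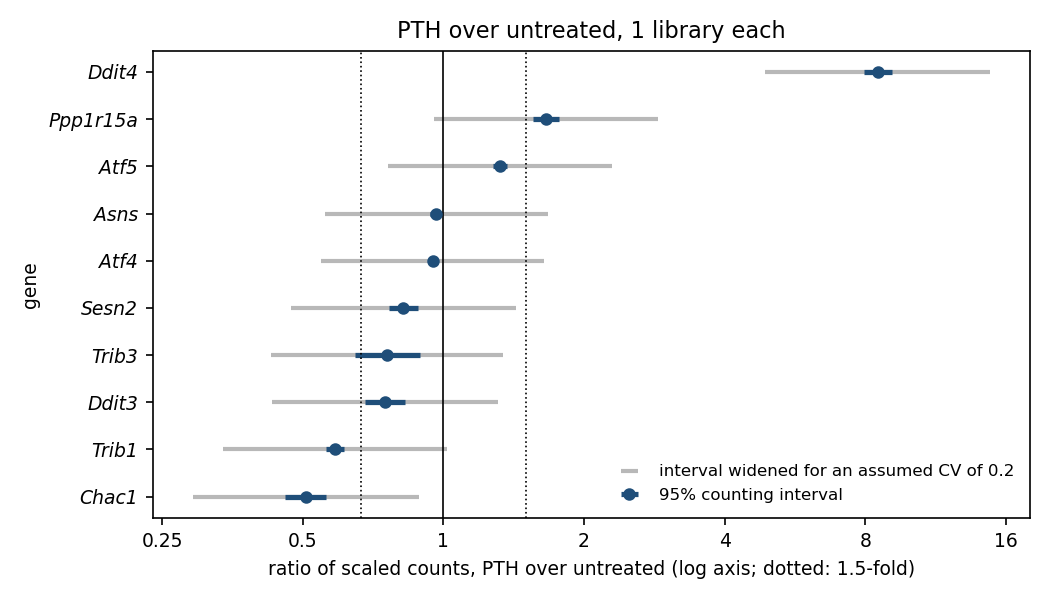
Ratio of scaled counts, PTH over untreated (log axis), for the 10 genes, with the 95% counting interval in blue and the interval widened for an assumed coefficient of variation of 0.2 per library in grey; dotted lines mark 1.5-fold in each direction. With the widened interval, Ddit4 (4.89 to 14.8) lies wholly beyond 1.5-fold and the other 9 do not.

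The variation between cultures was not measured, so an assumed one was tried. With a coefficient of variation of 0.2 added to each library, the rule called 2.89% of all compared rows higher and 1.63% lower. Ddit4 was called higher under it, and Ppp1r15a (0.955 to 2.88), Trib1 (0.338 to 1.02) and Chac1 (0.290 to 0.886) were not called. Of the cell type markers, Sox9 and Acta1 were called with this interval and Sp7 was not. With a coefficient of 0.1 Ddit4 was again the called gene of the 10, and 681 rows were called higher and 407 lower. Of the 9549 rows counted at least 1000 times, the middle 95% had ratios from 0.679 to 1.81. Ddit4 was above that band, Chac1 and Trib1 below it, and the other 7 inside it. The median log2 ratio of the 10 genes was -0.18, beside 0.00 over all compared rows.

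**Figure D3:**
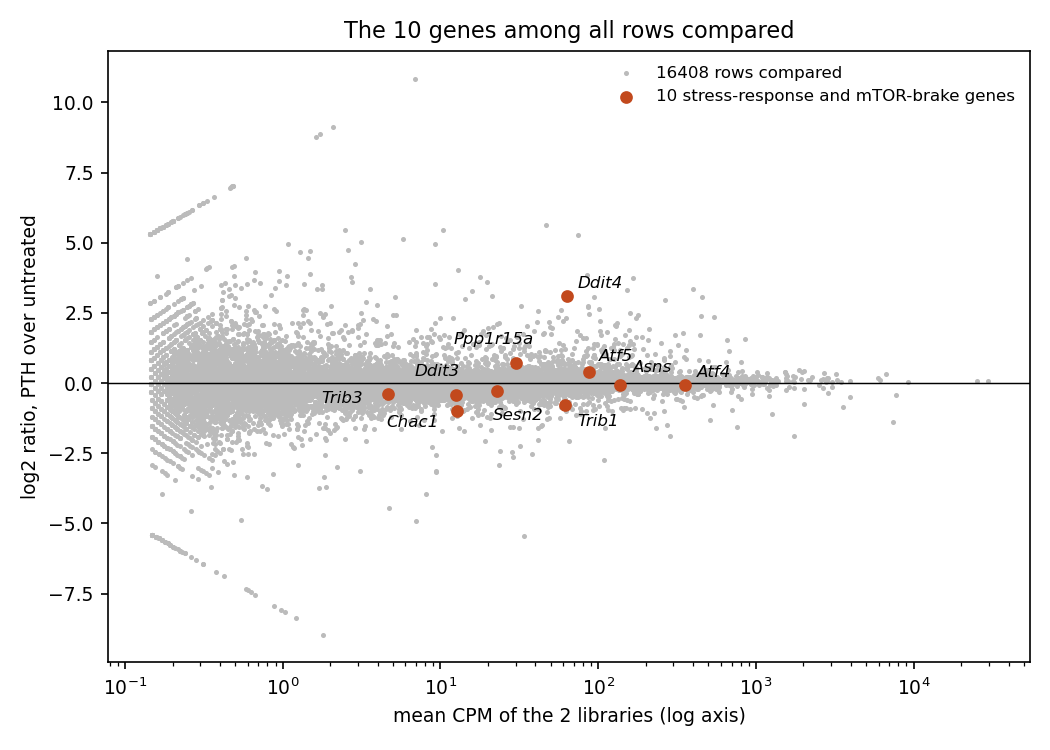
Log2 ratio, PTH over untreated, against the mean CPM of both libraries (log axis) for 16408 compared rows (grey) and the 10 genes (orange, named). Ddit4 lies at 3.09, above most rows at its level, while Atf4 and Asns lie at -0.08 and -0.05; the slanted lines of points at low CPM are rows with few counts or 0 in a library.

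Per kb of exon, where levels can be set between genes, Atf4 was the most abundant of the 10 in both libraries, at 153 CPM per kb untreated and 146 after PTH. In the untreated library Asns (51.2), Atf5 (37.7), Trib1 (12.4) and Chac1 (10.3) followed. Ddit3 (8.40), Ppp1r15a (7.75), Ddit4 (7.65) and Sesn2 (7.20) came next, and each of these overlapped its neighbour within counting error. Trib3 was the least abundant, at 2.49 CPM per kb. In the PTH library Ddit4 was second, at 65.1 CPM per kb (63.6 to 66.5), where it had been in place 8 untreated. Atf5 (49.8) and Asns (49.4) overlapped each other below it, and Ppp1r15a was at 12.9. Trib1 was at 7.30 and Ddit3 at 6.30. Ddit3 overlapped Sesn2 (5.91) and Sesn2 overlapped Chac1 (5.23), and Trib3 was again lowest, at 1.89. Chac1 thus moved from place 5 to place 9.

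Upstream of these genes, none of 4 eIF2alpha kinase genes was past the rule, and their median log2 ratio was 0.04. Eif2ak2, which encodes the kinase PKR, was at 1.06 (1.02 to 1.10), and Eif2ak1, which encodes the heme-regulated kinase, at 1.00 (0.958 to 1.05). Of 12 genes for eIF2, its exchange factor eIF2B and the phosphatase, none was past the rule either, with a median of 0.10. Ppp1r15b, the constitutive counterpart of Ppp1r15a, was at 0.830 (0.813 to 0.848), and Ppp1ca, a catalytic subunit, at 1.24 (1.22 to 1.26). By counting error alone Ppp1r15a was thus at a ratio above 1 while Ppp1r15b was below it. With a coefficient of variation of 0.2 assumed for each library, the Ppp1r15a interval (0.955 to 2.88) included 1.

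Of 9 paralogues and bZIP partners, 1 was higher and 1 lower, with a median of -0.11. Atf3, a stress-induced bZIP factor that ATF4 and CHOP act with, had 977 counts untreated and 207 after PTH, a ratio of 0.206 (0.176 to 0.239). It was called lower with the interval widened for a coefficient of 0.2 too. Cebpb, which dimerises with ATF4 and CHOP, was at 2.25 (2.18 to 2.33), was not called with that interval, and shares 20.7% of its exonic length with the opposite strand. Cebpg, a further dimer partner of ATF4, was at 0.834 (0.792 to 0.879). Jdp2, another gene of this list, was at 1.507 (1.433 to 1.585), neither past the rule nor placed within 1.5-fold.

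Of 46 compared targets of ATF4 or CHOP in 4 lists, 3 were higher (6.52%) and 2 lower (4.35%), beside 5.39% and 3.54% of all compared rows. Among rows with at least as many counts as Trib3 the shares were 3.28% and 1.65%. Of the called targets, Cbs, Bbc3 and Fgf21 had fewer counts than Trib3. In the 12 genes of amino acid and one-carbon synthesis, 1 was higher, 1 lower and 10 neither, with a median of 0.05. Got1, an aspartate aminotransferase gene, had 3739 counts untreated and 20786 after PTH, a ratio of 5.40 (5.21 to 5.59), and was called with the widened interval too. Cbs, a transsulphuration enzyme gene, had 24 and 6 counts, a ratio of 0.243 (0.0812 to 0.610) that rests on few reads and was not called with it. Cth, the next enzyme of that route and picked after its value was seen, was at 1.79 (1.35 to 2.37), neither past the rule nor placed within 1.5-fold. The serine synthesis genes Phgdh and Psat1, picked after their values were seen, were at 1.12 and 1.10.

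Among 9 amino acid transporter genes 1 was higher and 8 neither, with a median of -0.02. Slc38a2, a sodium-coupled neutral amino acid transporter gene, was at 1.69 (1.67 to 1.71), with 39952 and 69340 counts, and was not called with the widened interval. None of 13 genes for aminoacyl-tRNA synthetases and tRNA export was past the rule (median -0.04), Eprs being at 1.36 (1.33 to 1.38) and Gars at 1.00 (0.984 to 1.02).

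Of 12 other compared targets of ATF4 or CHOP, 1 was higher, 1 lower and 10 neither, with a median of 0.11. Fgf21, a secreted metabolic hormone gene, had 6 counts untreated and 171 after PTH, a ratio of 27.7 (12.5 to 76.5), and was called with the widened interval too. Bbc3, which encodes the death-promoting BCL2 family protein PUMA, had 401 and 171 counts, a ratio of 0.414 (0.344 to 0.496), and was not called with it. Gdf15, a stress-induced cytokine gene picked after its value was seen, was at 1.81 (1.44 to 2.29). A further gene of this list, Stc2, had 2 and 8 counts and was not compared.

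The endoplasmic reticulum branches of the stress response did not pass the rule in any of 17 genes, with a median of 0.06. Calr and Hsp90b1, chaperone genes of that compartment, were at 1.08 (1.07 to 1.09) and 1.13 (1.11 to 1.14). Dnajb9, a cochaperone gene induced through XBP1 and picked after its value was seen, had the highest ratio of the list, 1.64 (1.495 to 1.81), and was just short of the rule.

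The machinery on which the brakes act held no called gene. None of 14 genes for the mTOR complexes, TSC and RHEB was past it, with a median of -0.07. Eif4ebp2, a translation repressor that mTORC1 phosphorylates, was at 0.958 (0.935 to 0.982), and Rheb, the GTPase that activates mTORC1, at 0.785 (0.760 to 0.810). None of 24 compared genes of the RAG, GATOR and AMPK arm was past it either, with a median of 0.02, and Rragb had no count in either library. Sec13, a GATOR2 subunit gene, was at 1.03 (1.01 to 1.06) and Stk11, which encodes the AMPK-activating kinase LKB1, at 1.497 (1.448 to 1.549). The highest ratios of the arm rested on few counts and were picked after they were seen: Rragd, a RAG GTPase gene, at 2.06 (1.13 to 3.90) from 17 and 36 counts, and Prkaa2, an AMPK catalytic subunit gene, at 1.98 (1.24 to 3.23) from 28 and 57. Their intervals do not show them to lie within 1.5-fold. Over all 12 related lists, 6 of 143 compared genes were higher (4.20%) and 4 lower (2.80%), beside the 5.39% and 3.54% of all rows, and their median was 0.03. With the interval widened for a coefficient of 0.2, 3 were higher and 1 lower.

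**Figure D4:**
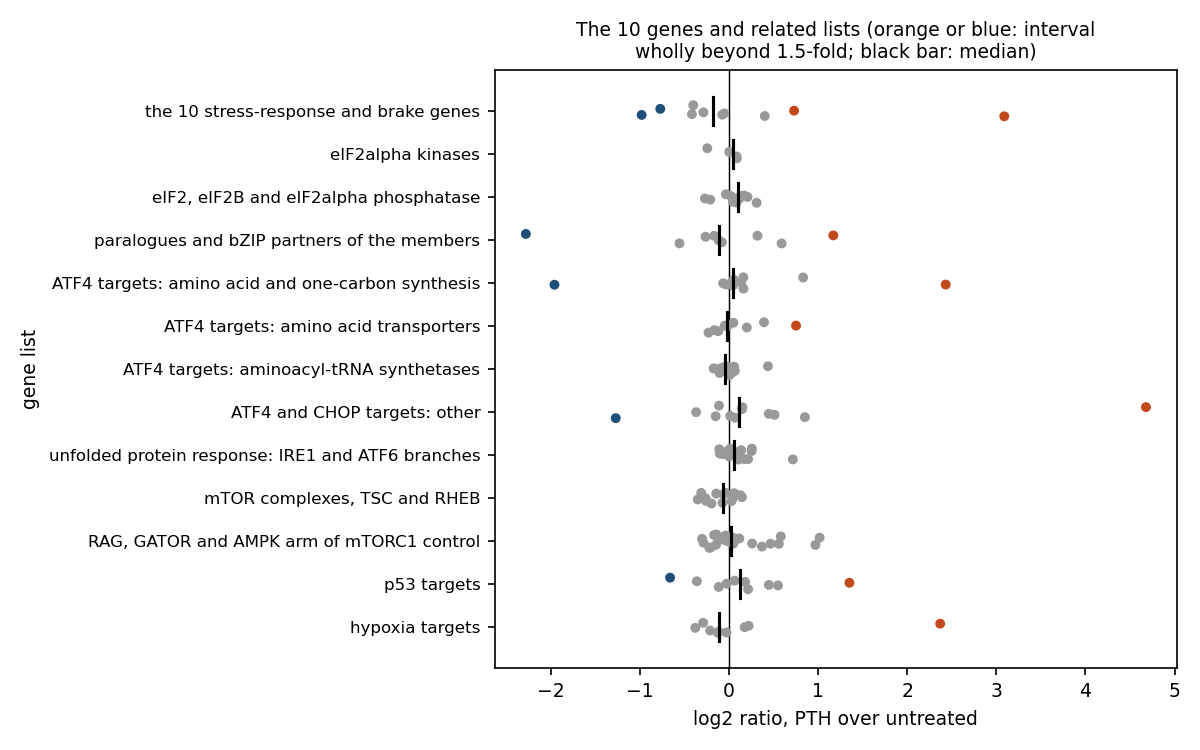
Log2 ratio, PTH over untreated, for the 10 genes and 12 related lists; each point is a gene, orange or blue where its interval lies wholly beyond 1.5-fold, and the black bar is the list's median. The medians lie between -0.18 for the 10 genes and 0.12 for the p53 targets, and the points far from 0 are single genes such as Ddit4, Fgf21, Got1, Vegfa and Atf3.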

How the data were processed

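The authors deposited a table of raw counts, whole numbers for each gene in each library. HISAT2 is the aligner and mm10 the build, per the submitters' processing notes. The aligner's version, the counter, the annotation and the handling of strand were not given in the sources used here. Totals were 66302211 untreated and 70036872 with PTH. Counts were scaled with TMM (edgeR 4.0.16, R 4.3.3) over the 16408 rows with a total of 20 or more. With 1 library per group no quasi-likelihood test in edgeR could be fitted, so no p-value was computed. Ratios carry exact conditional (Clopper-Pearson) intervals at 95% (scipy 1.17.1, Python 3.11.15), and log2 ratios add 0.5 count to each library. Reads are not independent molecules, so true counting error may be wider.

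Positions, exonic lengths and shared exons came from GENCODE M21 (GRCm38, the same assembly as mm10), in which 55227 of 55487 row identifiers and all 11 rows of the 10 genes were found. A search of its transcripts found no copy of any of the 10 genes with 95% identity over 200 bases. Promoter sequences are RefSeq's, from a table with 32851 windows, where 9 of the 10 genes matched. The 10 genes and the lists were chosen with earlier results of these data known. Besides the 10, up to 3 genes past the rule were named per related list, or otherwise the 2 with the most counts; paralogues, dimer partners, markers of cell type and genes marked as picked later were added. No gene was named for a like pattern, because 2 libraries give 1 ratio. Alternatives were other scalings (total counts, DESeq2 1.42.0 size factors, upper quartile), filters, fold limits and widened intervals.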

Additional observations from a re-analysis of the deposited data

How the results depend on the processing

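Scaling and filtering left the calls of the 10 genes as they were. Over 3 other scalings and 2 other filters none of the 10 changed its call, and no ratio moved by more than 1.03-fold; Ddit4 ranged from 8.30 to 8.53 and Chac1 from 0.494 to 0.508. The count of genes called depended on the size rule. With a 2-fold limit 1 of the 10 was higher (Ddit4) and 0 lower, and of all rows 517 were higher and 262 lower. With a 1.2-fold limit 3 were higher and 3 lower, and of all rows 1729 and 1459. With the interval widened for a coefficient of variation of 0.1 or 0.2, 1 was higher (Ddit4) and 0 lower; the rows called were 681 and 407 at 0.1, and 475 and 268 at 0.2. The count over all rows was 884 higher and 581 lower as reported, 1386 and 983 with no filter, and 543 and 307 with a minimum of 100. Restricted to rows counted at least as often as Trib3, a choice made after seeing the data, it was 338 and 170. No paired analysis was possible because each group has 1 library, and no library could be left out for the same reason. The depth limits Cbs, Ddit4l, Fgf21, Rragd, Prkaa2 and Acta1, which rest on fewer than 30 counts in a library.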

Other observations

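Other inputs are known to switch on some of the same genes. Ddit4 is also a hypoxia target, and 1 of 9 other compared hypoxia targets passed the rule. Of all compared rows 5.39% were higher and 3.54% lower. The median log2 ratio of the 9 was -0.11. The gene past it was Vegfa, an angiogenic factor gene, at 11753 counts untreated and 62585 after PTH, a ratio of 5.17 (5.07 to 5.27). The glycolytic genes Ldha and Pgk1 of the same list, picked after their values were seen, were at 1.17 and 1.13, and the hypoxia-induced hydroxylase gene Egln3, picked likewise, at 0.818 (0.617 to 1.08). Sesn2 and Ddit4 are p53 targets as well. Of 10 p53 target genes 1 was higher and 1 lower, beside the same shares of all rows, with a median of 0.12. Gadd45a, a growth arrest gene, was at 2.56 (2.11 to 3.11) from 150 and 395 counts, with 19.1% of its exonic length shared with the opposite strand. Plk2, a stress-induced kinase gene, was at 0.633 (0.606 to 0.661), and Mdm2, a principal p53 target picked likewise, at 1.05 (1.01 to 1.09). Neither Gadd45a nor Plk2 was called with the interval widened for a coefficient of variation of 0.2, whereas Vegfa was. Whether hypoxia or p53 has a part in the values of Ddit4 or Sesn2 was not tested.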
